A study of Homo sapiens with 12 samples.

Results

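The nuclear-encoded subunits of oxidative phosphorylation were followed here across 4 groups of exon arrays. Members were the probe sets whose only gene symbol starts with NDUFA, NDUFB, NDUFC, NDUFS or NDUFV, with UQCR, with COX4 to COX8 or with ATP5, or is SDHA to SDHD. Assembly factors of the NDUFAF kind and pseudogenes were left out, and older symbols were first brought to current ones, so that C14orf2, USMG5 and ATPIF1 entered as ATP5MJ, ATP5MK and ATP5IF1. The rule gave 909 of the 1411399 probe sets on the array, from 86 genes. Of these genes, 81 had at least 3 probe sets above the median level and were tested among 16883 genes. ATP5F1E, ATP5MGL, COX6B2, COX7B2 and COX8C did not reach that minimum. The tested members were 36 genes of complex I, 4 of complex II, 8 of complex III, 16 of complex IV and 17 of complex V.

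All RNA came from U2OS cells, a human osteosarcoma line, that stably carry K294A, a form of the capping enzyme without catalytic activity, under doxycycline control. The 4 groups of 3 arrays were induced cells (doxycycline at 1 ug/ml for 24 h) with Xrn1 treatment of the RNA, induced cells without it, uninduced cells with Xrn1 treatment and uninduced cells without it; the uninduced cells carried the K294A construct too. Cytoplasmic RNA was depleted of ribosomal RNA, and Xrn1, an exonuclease that degrades RNA carrying a 5' monophosphate, was applied to the purified RNA in the tube. The series asks which RNAs the cytoplasmic capping enzyme caps again, so the comparisons of interest were Xrn1 against no Xrn1 in each kind of cell and the difference between these changes.

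Oxidative phosphorylation passes electrons from NADH and succinate through complexes I to IV to oxygen and uses the proton gradient so formed to drive ATP synthase, complex V. Complexes I, III, IV and V combine a few catalytic subunits with many small accessory subunits, and some of their subunits are encoded in the mitochondrial genome; complex II is encoded by nuclear genes alone. The nuclear members are transcribed as ordinary capped mRNAs, translated in the cytoplasm and imported, and the factor NRF1 is known to bind the promoters of many of them.

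The promoters of 4 members that stand for the main patterns are shown first, because they share an NRF1 motif while their RNAs behaved differently after Xrn1: NDUFA3, which rose in induced cells, NDUFA9 and ATP5F1C, which fell in both kinds of cell, and SDHA of complex II. Each line gives the 120 bases before the annotated start, 5' to 3', from RefSeq's promoters on GRCh38.p14, with matches to the NRF1 motif GCGCANGCG, searched on both strands, in capitals. All 4 genes lie on the plus strand.
NDUFA3, chr19:54102735-54102854: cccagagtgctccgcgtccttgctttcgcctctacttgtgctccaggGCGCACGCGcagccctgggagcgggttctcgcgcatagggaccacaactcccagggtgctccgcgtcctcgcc
NDUFA9, chr12:4648994-4649113: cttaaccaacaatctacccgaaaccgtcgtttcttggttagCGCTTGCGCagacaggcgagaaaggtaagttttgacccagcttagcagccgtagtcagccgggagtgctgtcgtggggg
ATP5F1C, chr10:7788057-7788176: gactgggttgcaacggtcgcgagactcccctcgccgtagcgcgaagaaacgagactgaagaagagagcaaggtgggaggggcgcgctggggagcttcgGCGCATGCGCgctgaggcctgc
SDHA, chr5:218200-218319: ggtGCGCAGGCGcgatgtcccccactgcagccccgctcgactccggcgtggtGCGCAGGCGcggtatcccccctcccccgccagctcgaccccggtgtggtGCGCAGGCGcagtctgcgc
The SDHA stretch held 3 matches, that of ATP5F1C 2 overlapping ones on opposite strands, and the others 1 each. Promoter windows of 250 bases before to 50 after the start were matched for 72 of the 86 members, and 23 of them (31.9%) held GCGCANGCG, against 8.05% of all 27305 promoters in the table. Of the motifs of other factors known from these promoters, CCATNTT (YY1) was found in 43.1% of the member promoters and 15.9% of all promoters, CCGGAAG (ETS factors) in 27.8% and 10.7%, and AAGGTCA (oestrogen-related receptors) in 12.5% and 3.97%, both strands searched and overlaps between motifs allowed. The NRF1 letters were present in 5 of the 15 matched members that rose after Xrn1 in induced cells and in 5 of the 12 that fell.

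The deposited values held a feature that touches every result below. Along the order of the probe set IDs, which follows the chromosomes, the values on several arrays changed level sharply at 46.1% of the IDs, within chromosome 8. The median of the 650745 lower IDs minus that of the 760654 higher IDs was -0.06, -0.11 and -0.13 on the induced Xrn1 arrays (log2), and 0.66, 1.20 and -0.02 on the induced untreated arrays. It was -0.06, 1.31 and 0.58 on the uninduced Xrn1 arrays, and 0.23, -1.07 and -0.16 on the uninduced untreated arrays. Of the 86 members, 25 lay wholly in the lower block, 53 wholly in the upper block and 8 had probe sets in both. Some of these 8 went against the chromosome order. SDHD, on chromosome 11, had 83.3% of its kept probe sets in the lower block, and COX6A1, on chromosome 12, had 55.6%. SDHC, on chromosome 1, had 72.7% there and NDUFB4, on chromosome 3, had 50%. Whether all probe sets of such members lie at the gene itself was not tested. Results are therefore given from the values as deposited and, for the main counts and most members named, also from values in which both ID blocks were quantile normalised apart, an alternative added after the data had been seen; its source was not tested. As a list, mesenchymal markers lay above markers of other cell types in all groups. The mean over the 8 tested mesenchymal genes was 4.95 to 5.55 on induced Xrn1 and 5.56 to 6.07 on induced untreated arrays. It was 4.77 to 5.09 on uninduced Xrn1 and 5.94 to 6.44 on uninduced untreated arrays. The mean over 10 markers of other cell types was 2.92 to 3.42 on the 12 arrays. Single genes of both lists overlapped in every group. On uninduced untreated arrays the lowest mesenchymal gene averaged 3.05 and the highest marker of other cell types 4.29. Whether each marker was expressed was not tested.

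**Figure D1:**
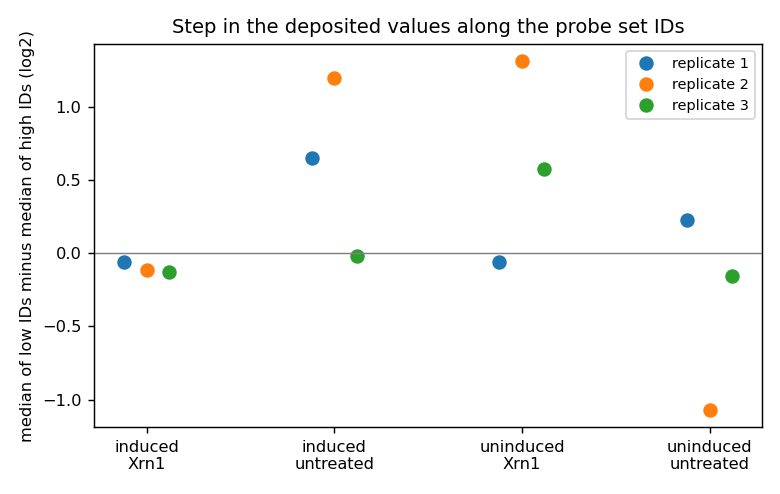
Median of the probe sets below the step in ID order minus the median of those above it (log2), for each array by group; colours mark the replicate number. The 3 induced Xrn1 arrays lie near 0, and the arrays farthest from 0 are uninduced Xrn1 replicate 2 (1.31), induced untreated replicate 2 (1.20) and uninduced untreated replicate 2 (-1.07).

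After Xrn1 treatment, large and small subunits differed. In induced cells as deposited, 9 of 14 large members fell, while 13 of 47 small members rose: ATP5F1B, the catalytic beta subunit of ATP synthase, changed by -2.29, and NDUFA3, a small membrane subunit of complex I, by 1.90 (log2, SE 0.34 each). As deposited, 18 of the 81 members rose and 15 fell (limma, Benjamini-Hochberg adjusted p under 0.05 over all genes), where 21.6% of all genes rose and 17.8% fell. With the ID blocks normalised apart, 23 rose and 18 fell, against backgrounds of 24.1% and 25.3%. After cyclic loess 28 rose and 9 fell, against 23.4% and 21.9%. The calls were largely shared between the first 2 scalings: 16 rises and all 15 deposited falls passed in both. The numbers of calls were thus near the background as deposited and with the blocks apart. After cyclic loess, members rose more often and fell less often than all genes. The same held with the blocks apart and cyclic loess together, with 34 rises and 12 falls against 27.6% and 27.3%. The members' median change was 0.15 as deposited and 0.09 with the blocks apart, against 0.10 and 0.12 over all genes.

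In uninduced cells most of the changes were downward as deposited and with the blocks apart. As deposited, NDUFA1 rose and 41 members fell, against 7.24% of all genes that rose and 31.8% that fell. With the blocks apart 5 rose and 41 fell, against 15.9% and 37.3%, and 35 falls and the rise of NDUFA1 passed in both. The members' median change was -0.80 as deposited and -0.54 with the blocks apart, and -0.27 and -0.12 over all genes. This downward shift depended on the scaling: after cyclic loess the members' median was 0.17, with 16 rises and 15 falls, against 21.9% of all genes in each direction. With the blocks apart and cyclic loess together the median was 0.088, with 31 rises and 15 falls, against 32.2% and 30.2%. The ranges of the groups were apart for 1 member higher and 42 lower as deposited, where 11.2% and 33.6% of all genes were, and for 5 and 47 with the blocks apart, where 21.4% and 40.5% were. In induced cells they were apart for 23 higher and 15 lower as deposited, where 28.3% and 22.6% of all genes were, and for 27 and 14 with the blocks apart, where 32.2% and 25.8% were.

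The size of the encoded protein separated the members in both kinds of cell. Members were called small under 150 residues (47 tested), middle (19) or large from 250 residues (14), from textbook sizes; NDUFV3, with isoforms of different size, was left out of the classes. In induced cells the median change was 0.26 for small, 0.26 for middle and -1.04 for large members as deposited, and 0.41, -0.05 and -1.01 with the blocks apart. As deposited, 13 of 47 small members rose and 3 fell, while none of the 14 large ones rose and 9 fell, beside the 21.6% and 17.8% of all genes given above; the share of small members that rose was thus not far from the background. In uninduced cells the medians were -0.48, -0.89 and -1.43 as deposited and -0.44, -0.48 and -1.41 with the blocks apart; 17 of 47 small and 12 of 14 large members fell as deposited, where 31.8% of all genes did, so that the small members' share was near the background.

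The array means show the same pattern without any fit. The mean over large members was 4.82, 4.28 and 4.80 on the induced Xrn1 arrays, against 5.32, 6.20 and 5.70 on the induced untreated arrays. It was 4.20, 4.30 and 4.48 on the uninduced Xrn1 arrays, against 6.23, 5.83 and 6.15 on the uninduced untreated arrays. In neither kind of cell did the groups overlap. The mean over small members was 4.63, 4.28 and 4.50 on induced Xrn1 arrays, against 3.81, 4.28 and 4.17 on induced untreated arrays, and the groups were barely apart, with the lowest Xrn1 array at 4.285 and the highest untreated one at 4.275. It was 3.87, 3.93 and 4.14 on uninduced Xrn1 arrays, against 4.57, 4.33 and 4.68 on uninduced untreated arrays, which lay higher. With the blocks apart, the induced groups overlapped for small members, while all others of these pairs stayed apart.

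**Figure D2:**
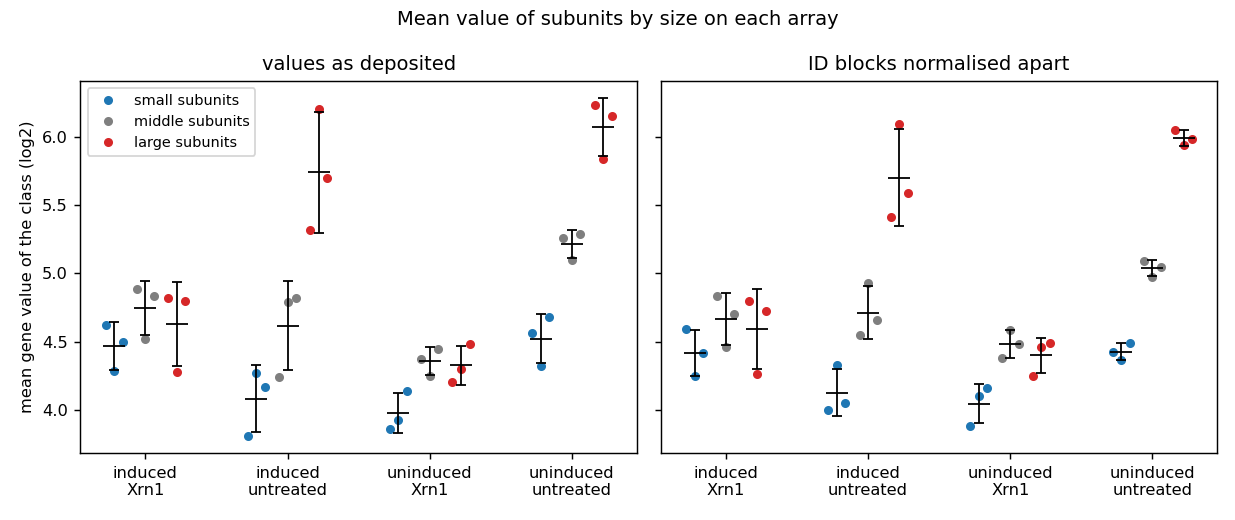
Mean gene value (log2) over small (47), middle (19) and large (14) members on each array, by group, with values as deposited on the left and both ID blocks normalised apart on the right; bars are the group mean ± SD over 3 arrays. Large members averaged 4.63 ± 0.31 on induced Xrn1 arrays and 5.74 ± 0.44 on induced untreated arrays as deposited, and 4.33 ± 0.14 on uninduced Xrn1 arrays and 6.07 ± 0.21 on uninduced untreated arrays.

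Small members lay above large ones within each ID block. Within the lower ID block, the median change in induced cells was 0.12 for 16 small and -0.79 for 5 large members as deposited, and within the upper block 0.79 for 27 small and -1.51 for 8 large members. In uninduced cells it was 0.00 and -0.92 in the lower block and -0.85 and -2.49 in the upper block. Genes at large showed a weaker difference of the same direction: 3064 genes with under 10 annotated probe sets had a median change of 0.35 in induced cells and 0.03 in uninduced cells, and 10206 genes with 15 or more had -0.00 and -0.41. Among the small members, the 32 with under 10 probe sets had a median of 0.59 in induced cells, and the 15 with 10 or more had -0.22; in uninduced cells these medians were -0.46 and -0.57. Level moved with the change as well. Among genes with a mean value above 5, the median change in induced cells was -0.72 over 1063 genes, 0.67 over 9 small members and -1.04 over 7 large members; in uninduced cells it was -1.49, -0.80 and -1.69. The part of probe set number and of level in the size pattern was not tested further.

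**Figure D3:**
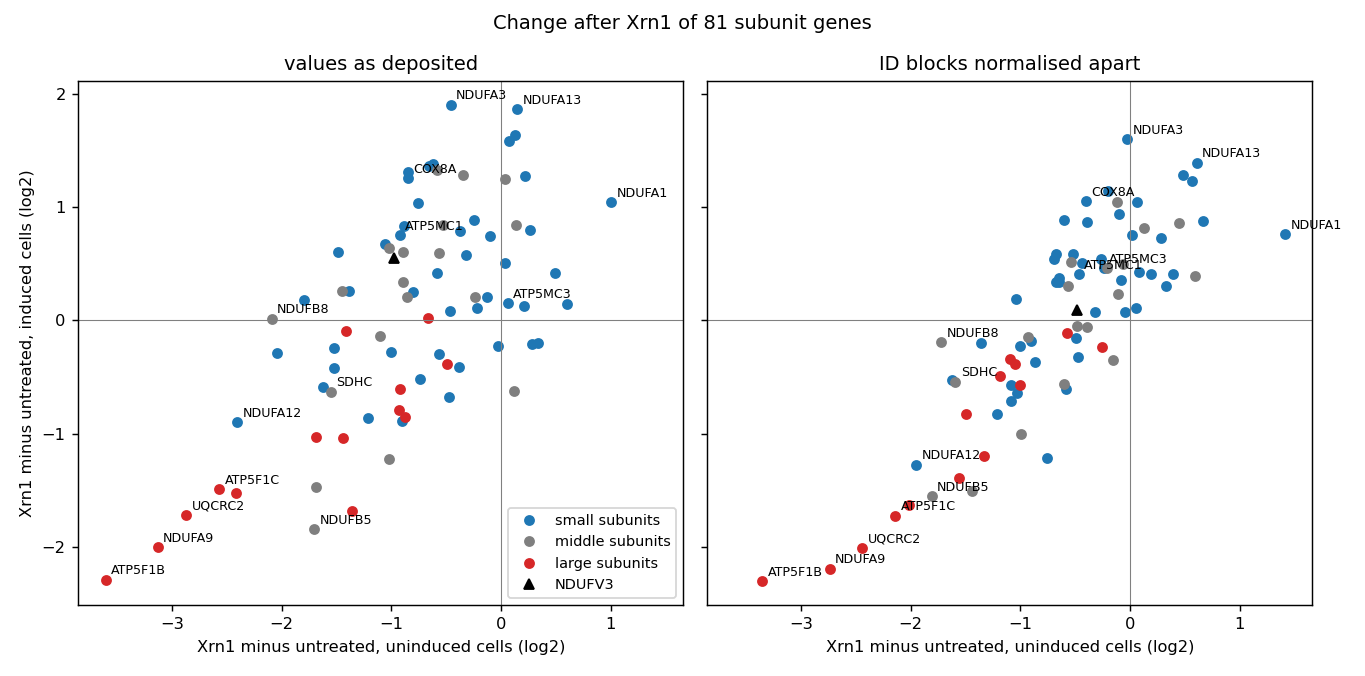
Change after Xrn1 (Xrn1 minus untreated, log2) in induced cells against uninduced cells for the 81 tested members, coloured by size, with values as deposited on the left and ID blocks normalised apart on the right. Most large members lie at the lower left, down to ATP5F1B at -3.60 and -2.29 as deposited, and the small ones reach the top, up to NDUFA3 at -0.46 and 1.90.

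Complex I held changes in both directions. Of its 36 members, 10 rose and 5 fell in induced cells as deposited (12 and 7 with the blocks apart), and 1 rose and 15 fell in uninduced cells (2 and 14). As deposited, 21.6% of all genes rose and 17.8% fell in induced cells, and 7.24% and 31.8% in uninduced cells. NDUFA9, a large accessory subunit next to the quinone site, had values of 4.98, 4.41 and 5.25 on induced Xrn1 arrays and 6.61, 7.38 and 6.67 on induced untreated arrays. It had 4.32, 4.01 and 4.89 on uninduced Xrn1 arrays and 7.36, 7.91 and 7.34 on uninduced untreated arrays. The groups were far apart in both kinds of cell. NDUFA9 fell by 2.01 in induced cells (SE 0.34, limma adjusted p = 2.16e-07), and the fall was 3.13 in uninduced cells (adjusted p = 6.07e-18); with the blocks apart the falls were 2.19 and 2.74. Of its 17 kept probe sets, 16 were lower after Xrn1 in induced cells and 17 in uninduced cells.

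The core subunits of the NADH-oxidising arm moved apart. NDUFS1, the largest iron-sulphur subunit, fell by 1.68 in induced cells (limma adjusted p = 1.83e-05), and the fall was 1.36 in uninduced cells (adjusted p = 0.000379); with the blocks apart the falls were 1.39 and 1.56. As deposited its uninduced groups overlapped. With its own spread the limma adjusted p was 0.0594 in induced and 0.0663 in uninduced cells as deposited, and 0.0077 and 0.0027 with the blocks apart. NDUFS3 fell by 1.52 in induced cells (limma adjusted p = 0.000128), and its fall in uninduced cells was 2.41 (adjusted p = 4.24e-11); with the blocks apart the falls were 1.63 and 2.02. NDUFS7 and NDUFS8, the smaller core iron-sulphur subunits, rose in induced cells by 1.24 and 0.84 as deposited and by 0.85 and 0.50 with the blocks apart, and changed by 0.04 and -0.53 in uninduced cells without passing. NDUFV1, the flavin-binding subunit, changed by 0.02 and -0.67 (-0.23 and -0.26 with the blocks apart) and passed in neither. Among accessory subunits, NDUFB5 fell by 1.85 in induced cells (limma adjusted p = 2.12e-06), and its fall was 1.71 in uninduced cells (adjusted p = 4.84e-06); with the blocks apart the falls were 1.55 and 1.81. NDUFA12 fell by 0.90 in induced and 2.41 in uninduced cells, and by 1.27 and 1.95 with the blocks apart. NDUFB8, of middle size, had 4.96, 5.02 and 5.04 on induced Xrn1 arrays and 4.50, 5.62 and 4.86 on induced untreated arrays, which overlapped. It had 4.36, 3.71 and 4.35 on uninduced Xrn1 arrays and 6.08, 6.83 and 5.78 on uninduced untreated arrays, which were apart. Its change was 0.01 in induced cells (limma adjusted p = 0.982), and it fell by 2.09 in uninduced cells (adjusted p = 1.4e-08; 1.72 with the blocks apart). NDUFB6, a small membrane subunit, rose by 1.31 in induced cells and fell by 0.85 in uninduced cells as deposited, and with the blocks apart it rose by 0.86 in induced cells and changed by -0.40 in uninduced cells without passing. Only 3 of its 9 probe sets were kept. Its mean on induced untreated arrays was 1.93 as deposited, where the median gene averaged 3.32.

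NDUFA3 stood at the other end. Its values were 5.29, 5.01 and 5.78 on induced Xrn1 arrays and 3.34, 2.90 and 4.13 on induced untreated arrays. They were 3.73, 4.04 and 4.15 on uninduced Xrn1 arrays and 4.02, 4.97 and 4.30 on uninduced untreated arrays. Only the induced groups were apart. NDUFA3 rose by 1.90 in induced cells (SE 0.34, limma adjusted p = 9.91e-07), and by 1.60 with the blocks apart (adjusted p = 2.41e-05), with 5 of 5 kept probe sets higher. Its change in uninduced cells, -0.46, did not pass (adjusted p = 0.293), and it was -0.03 with the blocks apart. NDUFA13, which is also known as GRIM-19, rose by 1.86 in induced cells (limma adjusted p = 1.72e-06), NDUFB7 by 1.59 (adjusted p = 6.26e-05) and NDUFA7 by 1.38 (adjusted p = 0.000585); with the blocks apart these were 1.39, 1.28 and 0.93. By RefSeq's annotation these genes and NDUFA3 lie on chromosome 19, where 10 of the 11 tested members rose in induced cells as deposited, with a median of 1.32, and 679 of all 1180 tested genes of that chromosome did, with a median of 0.87. With the blocks apart, 9 of the 11 rose, with medians of 0.93 for members and 0.44 for all genes of the chromosome.

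NDUFA1, a small membrane subunit whose gene is X-linked, rose in both kinds of cell, as deposited and with the blocks apart; with the blocks apart COX6A2, COX7A1 and NDUFA13 rose in both as well. Its values were 5.81, 5.25 and 5.82 on induced Xrn1 arrays and 4.14, 5.08 and 4.54 on induced untreated arrays. They were 5.57, 6.21 and 6.47 on uninduced Xrn1 arrays and 4.83, 5.37 and 5.04 on uninduced untreated arrays. Every Xrn1 array lay above every untreated array of its kind of cell, narrowly in induced cells. The rise was 1.04 in induced cells (limma adjusted p = 0.00991) and 1.00 in uninduced cells (adjusted p = 0.0113), on 3 kept probe sets that were all higher, and 0.76 and 1.41 with the blocks apart, where the induced groups overlapped. In uninduced cells the deposited call was lost when 1 of 2 arrays was left out (uninduced untreated replicate 1 or uninduced Xrn1 replicate 3, highest adjusted p = 0.109), and with the blocks apart it was lost in none.

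Complex II, which links the citric acid cycle to the chain, only moved downward as deposited and with the blocks apart. In uninduced cells all 4 subunits fell in both sets of values. Of all genes, 31.8% and 37.3% fell there, and 17.8% and 25.3% in induced cells. SDHA, the flavoprotein, fell by 0.88 and 1.00 in uninduced cells, and SDHB, the iron-sulphur subunit, by 0.92 and 1.09. The membrane anchor SDHC fell by 1.55 and 1.59 and the anchor SDHD by 1.02 and 0.99. SDHC had values of 3.14, 3.18 and 3.38 on uninduced Xrn1 arrays and 5.34, 4.09 and 4.92 on uninduced untreated arrays, which were apart. Both anchors had kept probe sets in both ID blocks, so their values may not come from the gene itself alone. As deposited, the uninduced groups of SDHA and SDHB overlapped, and with 1 array left out in turn the calls of SDHA and SDHB were each lost in 4 of 6 fits (without uninduced Xrn1 replicate 1 or 3 or uninduced untreated replicate 1 or 3; highest limma adjusted p = 0.167 and 0.154). That of SDHD was lost in 2 (without uninduced Xrn1 replicate 1 or uninduced untreated replicate 1; highest limma adjusted p = 0.133) and that of SDHC in none. None of the 4 calls was lost with the blocks apart. In induced cells SDHA and SDHD fell, by 0.85 (limma adjusted p = 0.0357) and 1.23 (adjusted p = 0.00236), and by 0.57 and 1.01 with the blocks apart, while SDHB changed by -0.61 and SDHC by -0.63 (-0.34 and -0.54 with the blocks apart) without passing. The fall of SDHA in induced cells was lost in 5 of 6 such fits as deposited, all but that without induced untreated replicate 1 (highest limma adjusted p = 0.233). It was lost in 3 with the blocks apart, without induced Xrn1 replicate 2 or induced untreated replicate 2 or 3 (highest limma adjusted p = 0.112). The fall of SDHD was lost in 1 as deposited, without induced untreated replicate 2 (limma adjusted p = 0.128). The falls of SDHA and SDHD did not pass after cyclic loess in either kind of cell, where SDHA changed by -0.59 in induced and 0.16 in uninduced cells and SDHD by -0.69 and 0.31.

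In complex III, UQCRC2, a large core protein of the cytochrome bc1 complex, fell in both kinds of cell. It had values of 4.04, 3.27 and 3.67 on induced Xrn1 arrays and 4.74, 6.03 and 5.36 on induced untreated arrays, and 3.08, 2.85 and 3.65 on uninduced Xrn1 arrays and 6.02, 6.18 and 5.99 on uninduced untreated arrays. No Xrn1 array reached an untreated one. The fall was 1.72 in induced cells (SE 0.34, limma adjusted p = 1.21e-05) and 2.87 in uninduced cells (adjusted p = 2.78e-15), and 2.01 and 2.44 with the blocks apart. UQCRFS1, the Rieske iron-sulphur protein, changed by -0.09 in induced cells without passing and fell by 1.41 in uninduced cells (limma adjusted p = 0.0002); with the blocks apart the changes were -0.38, which did not pass, and -1.04, which did. UQCRC1, the partner of UQCRC2, changed by -0.38 and -0.50 as deposited and passed in neither; with the blocks apart it fell by 0.57 in uninduced cells. The small subunit UQCR10 changed by -0.29 in induced cells without passing and fell by 2.05 in uninduced cells (limma adjusted p = 2.81e-08), with values of -0.53 and -1.63 and the same calls with the blocks apart. UQCR11 rose by 1.03 in induced cells (limma adjusted p = 0.0106) and changed by -0.76 in uninduced cells without passing. Its rise was 0.54 with the blocks apart (limma adjusted p = 0.0269), and its change in uninduced cells -0.26. As deposited, 1 of the 8 members rose and 1 fell in induced cells, and 4 fell in uninduced cells (1, 1 and 5 with the blocks apart), beside the same backgrounds.

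Complex IV, cytochrome c oxidase, has its catalytic subunits encoded in the mitochondrion, so its nuclear members are small or middle ones that surround the core. As deposited, 5 of 16 rose and 2 fell in induced cells (6 and 2 with the blocks apart), with a median change of 0.62 (0.32). In uninduced cells none rose and 6 fell (3 and 6), with a median of -0.61 (-0.42). As deposited, 21.6% of all genes rose and 17.8% fell in induced cells, and 7.24% and 31.8% in uninduced cells. COX8A, the ubiquitous form of subunit VIII, had 6.12, 5.96 and 6.46 on induced Xrn1 arrays and 4.38, 5.26 and 5.14 on induced untreated arrays. It had 5.08, 4.80 and 5.41 on uninduced Xrn1 arrays and 5.85, 6.15 and 5.84 on uninduced untreated arrays. The groups were apart in both kinds of cell, in opposite directions. It rose by 1.25 in induced cells (limma adjusted p = 0.00188) and fell by 0.85 in uninduced cells (adjusted p = 0.0356). With the blocks apart the changes were 1.05 (limma adjusted p = 0.000139) and -0.40 (adjusted p = 0.0772). With the blocks apart and cyclic loess together, COX8A was called higher in both kinds of cell. COX6B1 rose by 1.36 in induced cells (limma adjusted p = 0.000697) and by 1.14 with the blocks apart. The tissue-restricted paralogs COX6A2, known from heart and skeletal muscle, and COX7A1 rose by 1.64 and 1.27 in induced cells, and by 1.23 and 0.88 with the blocks apart. Both were dim on induced untreated arrays as deposited, with means of 2.81 and 2.09, where the median gene averaged 3.32. Whether these signals come from expressed RNA was not tested. COX6A1, the ubiquitous counterpart of COX6A2, changed by 0.25 in induced cells without passing and fell by 0.80 in uninduced cells (limma adjusted p = 0.0485). With the blocks apart the changes were 0.34 and -0.67. With 1 array left out in turn, the fall was lost in 5 fits as deposited (highest limma adjusted p = 0.244). It was lost in 2 with the blocks apart (highest limma adjusted p = 0.133). After cyclic loess the fall turned to a rise of 0.95. COX7B changed by 0.60 in induced cells without passing and fell by 1.48 in uninduced cells, and COX7C fell in both, by 0.89 and 0.91. The calls were the same with the blocks apart, with 0.19 and -1.04 for COX7B and -0.64 and -1.03 for COX7C. The groups of COX7C overlapped in uninduced cells as deposited and in induced cells with the blocks apart. With its own spread the limma adjusted p of COX7C was 0.175 in induced and 0.169 in uninduced cells as deposited. With the blocks apart these were 0.139 and 0.0323.

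**Figure D4:**
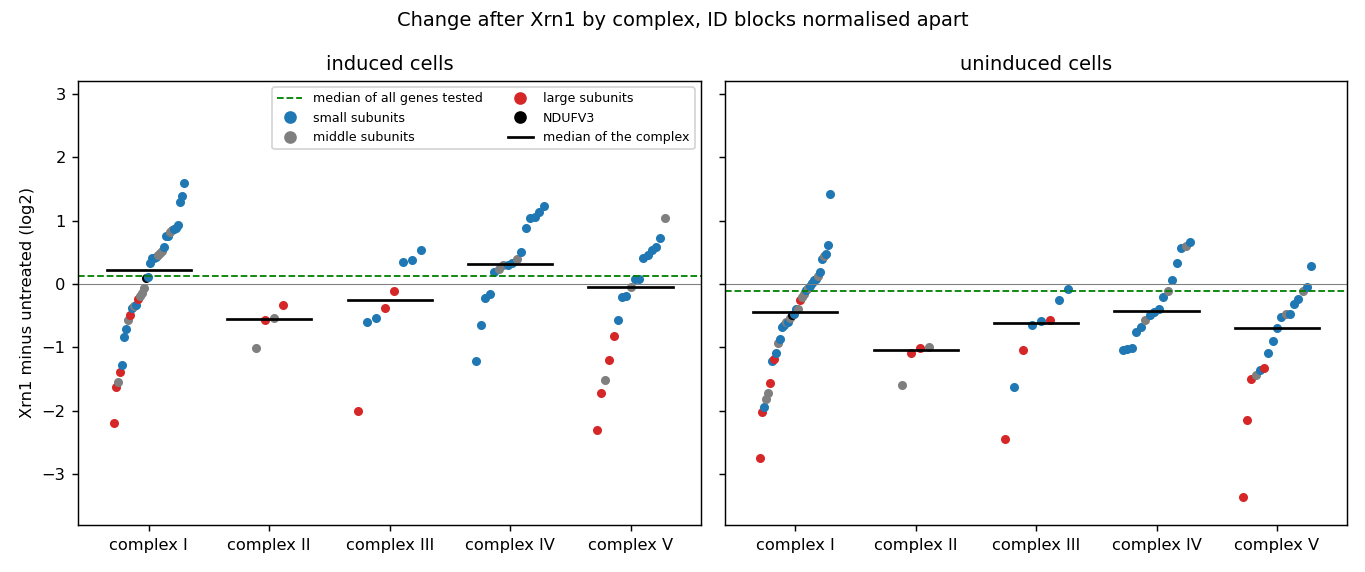
Change after Xrn1 (Xrn1 minus untreated, log2, ID blocks normalised apart) of each tested member by complex, in induced cells on the left and uninduced cells on the right, coloured by size; black bars are medians of a complex, and the dashed line is the median of all 16883 genes (0.12 and -0.12). Complex II lies below the dashed line in both, with medians of -0.56 and -1.05, and the lowest members of complexes I, III and V are the large NDUFA9, UQCRC2 and ATP5F1B.

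Complex V contained the deepest fall. ATP5F1B had values of 6.62, 6.01 and 7.35 on induced Xrn1 arrays and 8.73, 9.33 and 8.78 on induced untreated arrays. It had 5.76, 5.74 and 5.91 on uninduced Xrn1 arrays and 9.34, 9.64 and 9.24 on uninduced untreated arrays. The groups were more than 1 log2 unit apart in both kinds of cell. The change was -2.29 in induced cells (SE 0.34, limma adjusted p = 2.26e-09) and -3.60 in uninduced cells (adjusted p = 2.84e-23). It was -2.30 and -3.35 with the blocks apart and -0.97 and -1.55 after cyclic loess, and it passed under each of these. The small p values rest on the common SD of the fit: with the gene's own spread the limma adjusted p was 0.0128 in induced and 0.000643 in uninduced cells. The other large subunits of the F1 head fell too: ATP5F1C, the gamma subunit of the rotating shaft, by 1.49 in induced and 2.57 in uninduced cells, and ATP5F1A, the alpha subunit, by 1.03 and 1.69. ATP5F1C had changes of -1.73 and -2.14 and ATP5F1A of -1.20 and -1.33 with the blocks apart, all past the threshold. ATP5F1D, the delta subunit of the same shaft and of middle size, rose by 1.32 in induced cells and by 1.04 with the blocks apart, and changed by -0.59 in uninduced cells (-0.12 with the blocks apart) without passing. In the peripheral stalk, ATP5PB fell by 1.04 and 1.44 and ATP5PD by 1.48 and 1.69, while ATP5PF changed by 0.17 in induced cells without passing and fell by 1.80 in uninduced cells. Calls were the same with the blocks apart, where the changes were -0.82 and -1.49 for ATP5PB, -1.51 and -1.44 for ATP5PD and -0.20 and -1.36 for ATP5PF. The induced groups of ATP5PB overlapped in both sets of values. With its own spread the limma adjusted p of ATP5PB in induced cells was 0.103 as deposited and 0.0733 with the blocks apart.

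The 3 genes ATP5MC1, ATP5MC2 and ATP5MC3 encode the same mature subunit c of the rotor ring with different import sequences. ATP5MC2 had 5.55, 5.56 and 6.21 on induced Xrn1 arrays and 4.86, 4.69 and 5.27 on induced untreated arrays, and 5.14, 4.73 and 5.29 on uninduced Xrn1 arrays and 5.86, 6.12 and 5.83 on uninduced untreated arrays. Its groups were apart upward in induced and downward in uninduced cells. It rose by 0.83 in induced cells (limma adjusted p = 0.0407) and fell by 0.88 in uninduced cells (adjusted p = 0.0284); the values with the blocks apart were 0.59 and -0.52, both past the threshold. With 1 array left out in turn, the rise was lost in 5 of 6 fits as deposited, all but that without induced untreated replicate 3 (highest limma adjusted p = 0.254), and with the blocks apart without induced Xrn1 replicate 3 (limma adjusted p = 0.109). The fall was lost as deposited without uninduced Xrn1 replicate 2 (limma adjusted p = 0.137), and with the blocks apart in 3 fits, without uninduced Xrn1 replicate 1 or 2 or uninduced untreated replicate 1 (highest limma adjusted p = 0.0731). ATP5MC1 changed by 0.75 in induced cells (limma adjusted p = 0.0663) and fell by 0.92 in uninduced cells (adjusted p = 0.0211), with 0.41 and -0.47 and the same calls with the blocks apart. Its fall was lost in 3 such fits as deposited and in 4 with the blocks apart (highest limma adjusted p = 0.0985 and 0.144). ATP5MC3, in the lower ID block, changed by 0.15 and 0.06 as deposited and passed in neither, and by 0.46 (adjusted p = 0.0375) and -0.24 with the blocks apart. The falls of ATP5MC1 and ATP5MC2 in uninduced cells turned to values of 0.08 and 0.49 after cyclic loess. ATP5IF1, the inhibitor that blocks ATP hydrolysis by the synthase, changed by -0.21 and 0.28 (0.07 and -0.05 with the blocks apart) and passed in neither.

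**Figure D5:**
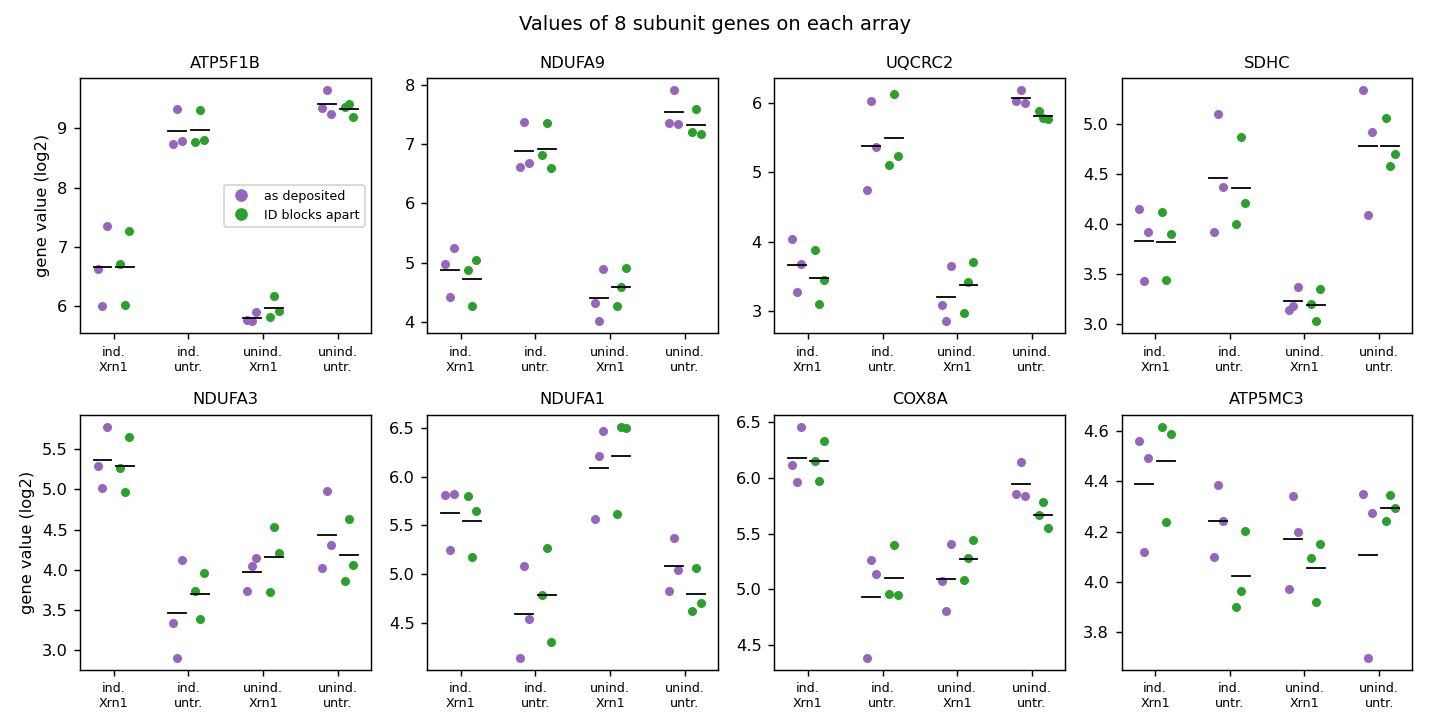
Gene value (log2) of 8 members on each array, with the induced Xrn1, induced untreated, uninduced Xrn1 and uninduced untreated groups from left to right; colours separate values as deposited from those with ID blocks normalised apart, and bars are means of 3 arrays. ATP5F1B, NDUFA9 and UQCRC2 are lower on all Xrn1 arrays, NDUFA3 is higher only on the induced ones, and NDUFA1 is higher after Xrn1 in both kinds of cell as deposited.

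Falls that passed under all of the deposited values, the ID blocks apart, cyclic loess and both together numbered 7 in induced cells: ATP5F1B, ATP5F1C, NDUFA12, NDUFA9, NDUFB5, NDUFS1 and UQCRC2. In uninduced cells 10 did, namely ATP5F1B, ATP5F1C, ATP5MJ, ATP5PF, NDUFA12, NDUFA9, NDUFB8, NDUFS3, SDHC and UQCRC2. In induced cells 16 rises passed under all 4, and in uninduced cells that of NDUFA1 did. Of all genes, 14.9% rose and 15.6% fell under all 4 in induced cells, and 4.65% rose and 19.6% fell in uninduced cells. Falls under all 4 were thus less frequent among the 81 members than among all genes in both kinds of cell. Rises were more frequent in induced and less frequent in uninduced cells. Under the blocks apart and cyclic loess together, 27.6% of all genes rose and 27.3% fell in induced cells, and 32.2% rose and 30.2% fell in uninduced cells. Of the members, 34 rose and 12 fell there in induced cells, and 31 rose and 15 fell in uninduced cells.

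The difference between both Xrn1 changes asks whether the response differed with induction of K294A, and its calls depended on the processing. As deposited, the change was higher in induced than in uninduced cells for 29 members and lower for none, where 20.6% of all genes were called higher and 1.23% lower. All 29 members lay in the upper block of IDs, and the median difference over all genes was 1.12 there and -0.39 in the lower block. Among the members, 3 passed after cyclic loess and 9 with the sample number of the titles as a block. None passed with each gene's own spread or without both arrays of the sample number CM5. With the blocks apart, where the prior also differs, COX8A alone was called, against 0.118% of all genes higher and 0.0118% lower. At an unadjusted limma p under 0.05, 39 members were higher there and none lower, where 2583 of all 16883 genes passed in either direction. The members' median difference was 0.58, with 73 of 81 above 0, and the median over all genes was 0.26. The difference for COX8A was 2.10 as deposited (SE 0.48, limma adjusted p = 0.00509) and 1.45 with the blocks apart (adjusted p = 0.0245), and 0.92 with the blocks apart and cyclic loess (adjusted p = 0.142). With 1 array left out in turn, COX8A was lost in 1 of 12 fits as deposited and in 8 of 12 with the blocks apart. For NDUFA3 it was 2.36 as deposited (limma adjusted p = 0.00131) and 1.62 with the blocks apart (adjusted p = 0.0517). For the large members NDUFA9 and UQCRC2 it was 1.13 (limma adjusted p = 0.067) and 1.15 (adjusted p = 0.062), and 0.55 and 0.43 with the blocks apart.

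In the fit over all 12 arrays, induction itself changed no member past the threshold in limma. Without Xrn1 none of the 81 passed, against 0.0118% of all genes higher and 0.0296% lower (0% both ways with the blocks apart). At an unadjusted limma p under 0.05, 32 were lower as deposited, where 5201 of all 16883 genes passed in either direction. Values lay below 0 for 63 members, with a median of -0.52 that became -0.31 with the blocks apart. As deposited, the median gene averaged 3.32 on induced and 3.59 on uninduced untreated arrays. With Xrn1 none passed, against 0.0533% of all genes higher and 0.00592% lower (0.0711% and 0.00592% with the blocks apart). At an unadjusted limma p under 0.05, 27 were higher as deposited, where 1534 of all genes passed in either direction. The members' median was 0.46 and became 0.32 with the blocks apart. As deposited, the median gene averaged 3.43 on induced and 3.23 on uninduced Xrn1 arrays. With Xrn1, 22 members passed, all higher, when only its 2 groups were fitted as deposited, and 20 with the replicate number as a block; with the blocks apart as well, none passed with the block. The member with the largest change with Xrn1 was NDUFA3, at 1.39 as deposited. Induction without Xrn1 gave 29 falls when induced untreated replicate 3 was left out as deposited, and none with the blocks apart. There, leaving out induced untreated replicate 2 gave 1. The shares of all genes were not counted under these alternative fits, so these member counts have no background beside them.

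Genes that work with the subunits were counted from lists, beside the shares of all genes: as deposited 21.6% rose and 17.8% fell in induced cells and 7.24% and 31.8% in uninduced cells, and with the blocks apart 24.1% and 25.3%, and 15.9% and 37.3%. Of 46 tested assembly factors, 5 rose and 10 fell in induced cells as deposited, with a median of -0.20, and none rose and 17 fell in uninduced cells, with a median of -0.59. With the blocks apart 6 rose and 16 fell in induced cells and 23 fell in uninduced cells, with medians of -0.24 and -0.53. LRPPRC, which stabilises mitochondrial mRNAs, fell by 2.41 in induced and 2.13 in uninduced cells, with changes of -2.09 and -2.34 with the blocks apart. Of 12 tested enzymes of the citric acid cycle, 7 fell in induced and 10 in uninduced cells and none rose (8, 10 and none with the blocks apart). IDH3A, a subunit of isocitrate dehydrogenase, fell by 2.42 and 3.30, with changes of -2.74 and -2.85 with the blocks apart. Among 5 electron carriers, 1 rose and 1 fell in induced cells and 1 fell in uninduced cells as deposited. ETFB rose by 1.35 in induced cells, and with the blocks apart by 0.94 there and 0.83 in uninduced cells. ETFA fell by 1.19 in induced and 2.05 in uninduced cells, and passed in both with the blocks apart too. All 10 tested mitochondrially encoded genes fell in both kinds of cell, as deposited with medians of -1.80 and -3.27 and with the blocks apart with -1.78 and -3.15, but after cyclic loess none passed in induced cells, where their median was -0.04, and 6 fell in uninduced cells.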

How the data were processed

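The deposited values are log2 intensities of 1 probe set each on 12 Affymetrix exon arrays, for which the authors used RMA (oligo), per the submitters' processing notes. Versions, annotation and genome build were not given in these sources. Changes are thus relative to the other probe sets of an array. Probe sets with 1 gene symbol (357604 of 1411399) and a mean above the median of 2.04 were kept (258175), symbols were matched to RefSeq names (2965 updated), and a gene's value is the mean of its kept probe sets, at least 3. Probe sets with several symbols, 60 of them naming a member, were not used. Values were fitted with limma 3.58.1 in R 4.3.3 over 12 arrays and 4 group means, with Benjamini-Hochberg adjustment across the 16883 genes within each of 5 contrasts, with a threshold of 0.05. The prior degrees of freedom came out infinite in limma, which gave all genes 1 common SD of 0.418 (SE 0.34, and 0.48 for the difference of changes, with 8 residual degrees of freedom). With both ID blocks normalised apart, the prior had 13.1 degrees of freedom and the median SE was 0.20.

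The labels call the samples biological replicates without naming separate cultures, so each p measures the spread between these samples, which may be technical. The number of arrays limits the precision. The replicate number of Xrn1 sample CM1X was taken as 1 from its sample number, since its title gives 2. Members and gene lists were chosen with earlier results of these data known. Named members were, for each contrast, the 6 largest rises and falls among those past the threshold, the largest change and the highest mean level in each complex, SDHA to SDHD, ATP5MC1 to ATP5MC3 and ATP5IF1, and other members named were chosen after their values were seen. Protein sizes came from general knowledge. Many members have processed pseudogenes, and cross-hybridisation was not tested. The fit was tested on simulated data. Alternatives are listed in the closing section. Python 3.11.15 with pandas 2.3.3 was used for tables, and no value column was left unmapped.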

Additional observations from a re-analysis of the deposited data

Results flagged for a closer look

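The change after Xrn1 differed between induced and uninduced cells, by limma's test of the difference on the deposited values, for 29 members, all higher in induced cells. Among the named members the difference (induced minus uninduced, log2) was 2.36 for NDUFA3, 2.16 for NDUFB6, 2.10 for NDUFB8, 2.10 for COX8A, 2.08 for COX7B, 2.02 for COX6B1, 1.97 for ATP5PF, 1.79 for UQCR11, 1.76 for UQCR10, 1.71 for ATP5MC2, 1.67 for ATP5MC1 and 1.31 for ATP5F1B. With both ID blocks normalised apart, the same members had 1.62, 1.26, 1.53, 1.45, 1.23, 1.34, 1.16, 0.80, 1.10, 1.11, 0.87 and 1.05, in that order, and COX8A alone passed the threshold. All 12 named members lie in the upper ID block, where the median difference over all genes was 1.12 as deposited.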

How the results depend on the processing

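Small against large is the difference of their median changes, which was 1.29 in induced and 0.95 in uninduced cells as deposited. In both kinds of cell it stayed above 0 under every alternative run. In induced cells it was 1.49 with the ID blocks centred apart, 0.97 after cyclic loess, 0.90 with the blocks apart and cyclic loess, 1.82 with the median of probe sets, 1.54 with the upper quartile filter and 1.07 with a split at 200 residues. A split by probe set number instead of size, under 10 against 15 or more, gave 1.33 in induced cells, close to the 1.29 of the size classes. In uninduced cells it was 1.14 with the blocks centred apart, 1.25 with the median of probe sets, 0.59 after cyclic loess and 0.35 between members with under 10 and with 15 or more probe sets. For induction without Xrn1 that last split gave -0.28, against -0.12. For the difference of Xrn1 changes the values were 0.60 with the median of probe sets and 0.041 with the split at 200 residues, against 0.37. A split at the median protein length was not run, since no lengths were given.

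The median change of members in uninduced cells moved most: -0.80 as deposited, -0.54 with the blocks apart (also with each gene's own spread), -0.44 centred on the median gene, 0.17 after cyclic loess and 0.088 with the blocks apart and cyclic loess. For induction without Xrn1 it was -0.52 as deposited, and -0.31, -0.25, -0.17 and -0.064 under the same alternatives in that order; with Xrn1, 0.46 became 0.15 after cyclic loess and 0.11 with the blocks apart too. For the difference of changes, 1.04 became 0.58 with the blocks apart (also with own spread), 0.74 with them centred apart, 0.57 centred on the median gene, 0.30 after cyclic loess and 0.16 with both. Among the members named for Xrn1 in uninduced cells, directions reversed after cyclic loess for ATP5MC1 (0.085), ATP5MC2 (0.49), COX6A1 (0.95), SDHA (0.16) and SDHD (0.31). With the blocks apart as well they reversed for ATP5MC1 (0.32), ATP5MC2 (0.62), COX6A1 (0.86) and SDHD (0.083). Members outside that selection reversed too. Among them, ATP5MG, ATP5PO, COX5A, COX8A and NDUFB11 fell in uninduced cells as deposited. These were called higher there with the blocks apart and cyclic loess together. The cause was not tested.

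With each gene's own spread, 17 members passed in induced cells, against 33, and 28 in uninduced cells, against 42. In induced cells the own-spread limma adjusted p was 0.0555 for NDUFA7, 0.0594 for NDUFS1, 0.0647 for UQCR11 and 0.0744 for NDUFA12 as deposited. Each of these passed with the blocks apart and own spread. The 29 members called for the difference of changes became 1 with the blocks apart, 3 after cyclic loess, 16 centred on the median gene, 18 with the median of probe sets, 19 with the upper quartile filter, and 0 with own spread, with the blocks centred apart, with the blocks apart and own spread or cyclic loess, and without both arrays of CM5. In limma 43 members were higher at an unadjusted p under 0.05 as deposited, and 38 with own spread. Over all genes, 7210 and 6306 passed that limit in either direction. Induction with Xrn1 gave 22 calls when only its groups were fitted, against 0, and the share of all genes under that fit was not counted.

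Titles give an Xrn1 and an untreated array a shared sample number, such as CM5, and the labels do not say that these are 1 RNA; as deposited their deviations correlated between -0.71 and 0.13. The sample numbers were thus not taken as pairs in the main fit. With the sample number as a block, 9 members passed for the difference of changes (1 with the blocks apart, median 0.58). With the ID blocks apart, the median in uninduced cells was then -0.54. With the replicate number as a block, 20 members passed for induction with Xrn1, where the share of all genes was not counted. With the ID blocks apart, the median for induction without Xrn1 was then -0.31.

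With 1 array left out in turn, as deposited and with the blocks apart, small minus large was 1.18 to 1.53 in induced cells, 0.87 to 1.12 in uninduced cells, -0.30 to 0.065 for induction without Xrn1 and 0.045 to 0.39 for the difference of changes. The members' median in induced cells was -0.0089 to 0.33 as deposited and 0.0060 to 0.19 with the blocks apart. It was -0.86 to -0.48 in uninduced cells, -0.65 to -0.24 for induction without Xrn1, 0.20 to 0.58 with Xrn1 and 0.49 to 1.13 for the difference of changes. Calls as deposited were 20 to 38 in induced cells (20 without induced untreated replicate 2) and 31 to 38 in uninduced cells, and 33 to 43 and 37 to 42 with the blocks apart. For induction without Xrn1 they were 0 to 29. For the difference of changes they were 0 to 39: as deposited 4 without induced Xrn1 replicate 3, 5 without uninduced Xrn1 replicate 2, 7 without induced untreated replicate 1, 9 without induced Xrn1 replicate 1, 19 without uninduced untreated replicate 3 and 39 without induced untreated replicate 3, and with the blocks apart 12 without induced untreated replicate 2 and 0 to 2 otherwise.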
